A study of Glycine max with 13 samples.

Results

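A group of 1527 places in the soybean genome carried peaks of most maize auxin response factors (ARFs) of clade A together with peaks of a few of clade B. They were chosen by which of 12 deposited peak lists had an event there. Event positions of all lists were chained when neighbours on a chromosome lay within 100 bp, which gave 71895 merged sites. A merged site was a member if it held events of at least 4 of the 6 clade A ARFs and of 1 to 3 of the 6 clade B ARFs. Members were 2.12% of all merged sites, whereas sites with 1 to 3 clade B ARFs, whatever their clade A ARFs, were 41.7%. Of the 6030 sites where 4 or more clade A ARFs had events, members were 25.3% (Wilson 95% interval 24.2% to 26.4%). The remainder were 1652 sites where each clade had 4 or more ARFs, called both-clade sites here, and 2851 without any clade B peak, called clade A-only sites. The rule used presence of peaks in all 12 lists, so the number of members, their clade make-up and the strength of their events are given as a description without a test.

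ARFs are plant transcription factors through which the hormone auxin changes gene expression, and their DNA-binding domain recognises short auxin response elements built around a TGTC core. They bind as dimers, so a site can hold a pair of such elements at a set spacing and orientation. Clade A members are generally described as activators and are held in check by Aux/IAA repressors when auxin is low. Clade B members are generally described as repressors that are less tied to auxin and may compete with clade A members for the same elements.

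The assay was DAP-seq, a DNA affinity purification read out by sequencing. A tagged factor made outside the plant is mixed with naked, fragmented genomic DNA and the fragments it retains are sequenced. The DNA came from soybean (Glycine max) leaf, so chromatin and the partners of the living cell were absent from the binding step. Clade B comprised ARF10, ARF25, ARF36, ARF7, ARF39 and ARF14, and clade A comprised ARF34, ARF16, ARF4, ARF27, ARF29 and ARF18. Each protein had 1 library and 1 list, without replicates, and the lists held 1106 to 35715 events. The GST-HALO tag alone served as the study's negative control and was not analysed here. The clades are not in the sample labels. They were taken as background knowledge of the maize ARF family and were not checked against sequences or a source, and each clade value rests on them. Depth is unknown, so a missing peak may be one below the threshold of that list, and intervals of shares cover counting error only.

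Among the 1527 members, 664 (43.5%) had 1 clade B ARF, 489 (32.0%) had 2 and 374 (24.5%) had 3. On the clade A side, 808 members (52.9%) had exactly 4 ARFs, 553 (36.2%) had 5 and 166 (10.9%) had all 6. The commonest class was 4 clade A ARFs with 1 clade B ARF, at 362 sites, and the rarest was 6 with 3, at 30 sites. Just outside the rule lay 985 sites with 3 clade A and 1 to 3 clade B ARFs, and 424 sites with at least 4 clade A and exactly 4 clade B ARFs. Strength is the value the authors gave each event, and its rank within its own list is given here as a percentile. The median over sites of the mean clade A percentile was 61.6 at members with exactly 4 clade A ARFs and 52.7 at the sites with 3. The mean clade B percentile had medians of 37.2 and 37.1 at the same sites. For clade B the median was 44.4 at members with exactly 3 clade B ARFs and 56.0 at the sites with exactly 4.

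ARF25 and ARF10 were the clade B proteins that joined most often, and ARF10 did so from a list of middling length. ARF25 had a peak at 855 members (56.0%, Wilson 95% interval 53.5% to 58.5%), against 25.8% of all merged sites. ARF10 had a peak at 829 members (54.3%, 51.8% to 56.8%), against 16.8% of all sites. ARF36, whose list is the longest of clade B, had a peak at 601 members (39.4%, 36.9% to 41.8%), against 30.6% of all sites. The other 3 proteins had smaller shares at members than over all sites, although all sites include those without any clade B ARF. ARF7 had 334 members (21.9%, 19.9% to 24%), against 28.3% of all sites. ARF14 had 96 (6.29%, 5.18% to 7.62%), against 12.9%. ARF39 had 49 (3.21%, 2.44% to 4.22%), against 5.73%.

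Set against list length, the order began with ARF10. It contributed 13.9% of the 88414 clade B events and 29.99% of the 2764 joins, a join being 1 clade B ARF at 1 member, which is 2.16 times its share of events. The same ratio was 1.44 for ARF25, 0.85 for ARF36, 0.51 for ARF7, 0.37 for ARF39 and 0.32 for ARF14. Seen from the lists, 6.93% of the 12286 ARF10 events lay at members, against 4.59% for ARF25 (19058 events), 2.68% for ARF36 (22516), 1.63% for ARF7 (20802), 1.21% for ARF39 (4210) and 1.03% for ARF14 (9542). At the both-clade sites the shares lay closer together, with 97.9% for ARF25, 97.2% for ARF36, 91.0% for ARF7, 88.7% for ARF10, 84.9% for ARF14 and 63.0% for ARF39.

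ARF10 and ARF25 stayed above their all-site shares under every setting tried, while the other 4 lay above in some and below in others. The ratio of the share at members to the share of all sites was 3.24 for ARF10, and it ran from 2.52 to 3.71 over 6 other settings and 11 cases with another ARF left out. For ARF25 it was 2.17, with a range of 1.48 to 2.76 over the same number. By the rule each member has at least 1 clade B ARF, whereas all merged sites include those without any. A ratio of 1 is therefore no neutral mark, and crossing it has no meaning of its own. The rule admits at most 3 clade B ARFs, so leaving out a frequent one lets in sites that had 4. The ratio of ARF7, 0.77, became 1.21 without ARF10, 1.23 without ARF25 and 1.13 without ARF36. That of ARF14, 0.49, became 1.2 without ARF25 and 1.10 without ARF36, and that of ARF39, 0.56, became 1.24 without ARF25, 1.01 without ARF36 and 1.61 with the 4210 strongest events of each list. ARF36, at 1.29, turned to 0.96 without ARF34, 0.73 with the 12286 strongest events and 0.65 with the 4210 strongest. With only the 4210 strongest events of each list, the share of the 410 members left was 57.3% for ARF10, 36.3% for ARF39, 33.7% for ARF25, 21.7% for ARF14, 14.6% for ARF36 and 10.2% for ARF7.

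**Figure D1:**
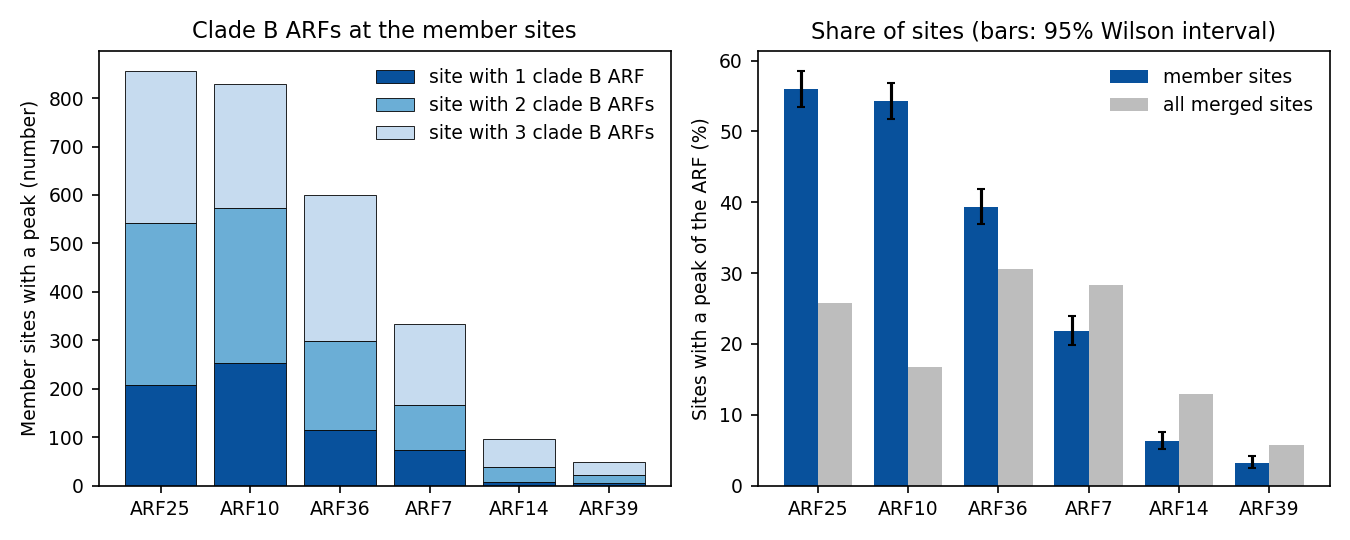
The left panel shows the number of member sites (vertical axis) with a peak of each clade B ARF, split by the number of clade B ARFs at the site. The right panel sets the share of the 1527 members with a peak of the ARF (blue, with 95% Wilson intervals) beside its share of all 71895 merged sites (grey): 54.3% against 16.8% for ARF10 and 21.9% against 28.3% for ARF7.

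The identity of a lone clade B peak differed with the number of clade A ARFs beside it. Of the 15077 sites with a single clade B ARF and no clade A ARF, ARF7 was that ARF at 43.6% and ARF10 at 5.11%. At 1 clade A ARF (1219 sites) ARF10 made up 15.3%, at 2 (680 sites) 21.2% and at 3 (443 sites) 29.8%. At the members it made up 40.9% with 4 clade A ARFs (362 sites), 33.2% with 5 (229 sites) and 41.1% with 6 (73 sites). ARF7 ran the other way, with 27.1%, 21.8% and 16.3% at 1, 2 and 3 clade A ARFs, then 13.5%, 10.5% and 1.37% at 4, 5 and 6. ARF25 made up 20.2% without clade A ARFs and 24.3%, 38.9% and 42.5% at 4, 5 and 6. ARF36 made up 29.6% without clade A ARFs, and 18.8%, 16.6% and 11.0% at 4, 5 and 6. In these full lists, ARF14 and ARF39 were each at most 2.74% of lone clade B peaks at every number of clade A ARFs.

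Shortened lists kept the contrast between ARF10 and ARF7 and not that of ARF25. When lists longer than that of ARF10 were shortened to their 12286 strongest events, ARF10 was the lone clade B ARF at 18.7% of 9667 sites without clade A ARFs. It was so at 70.9% (Wilson 95% interval 66.9% to 74.6%) of the 533 sites with 4 to 6 clade A ARFs. ARF7 had 37.3% and 5.63% at the same sites, and ARF25 had 17.3% and 13.1%. With the 4210 strongest events, which makes all 6 clade B lists equally long, ARF10 had 15.9% of 3906 and 57.4% of 202 such sites. ARF7 then had 33.1% and 4.95%, and ARF25 14.03% and 9.9%. These sites share the 12 libraries, and the trend over them was not tested.

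**Figure D2:**
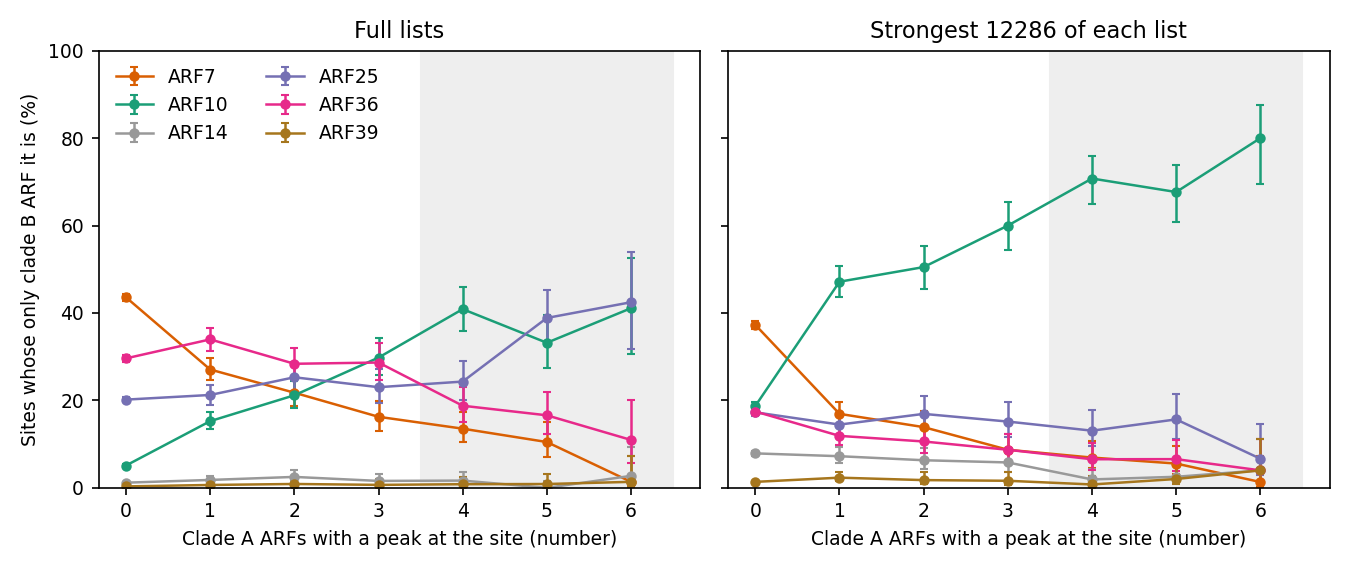
Share of sites with a single clade B ARF at which that ARF was the one named (vertical axis, percent, with 95% Wilson intervals) by the number of clade A ARFs at the site (horizontal axis), for the full lists (left) and for lists shortened to at most their strongest 12286 events (right). The grey area marks the members, where ARF10 made up 40.9% at 4 clade A ARFs in the full lists and 70.8% in the shortened ones.

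The clade B ARFs joined in many combinations, with unequal counts. Of 41 possible combinations of 1 to 3 ARFs, 34 occurred. ARF10 alone was found at 254 sites, ARF10 with ARF25 at 243, ARF25 alone at 208 and ARF10 with ARF25 and ARF36 at 167. ARF10 with ARF25 made up 49.7% of the members with 2 clade B ARFs, and the trio with ARF36 made up 44.7% of those with 3. ARF36 was alone at 114 sites, ARF7 at 74, ARF14 at 8 and ARF39 at 6. The pair of ARF10 and ARF25, with or without a further ARF, occurred at 462 sites, which is 55.7% of the ARF10 members and 54.0% of the ARF25 members. These are near the shares over all members, 56.0% for ARF25 and 54.3% for ARF10, so the count shows no preferred pairing. ARF7 was found with ARF36 at 47.3% of its members, against 39.4% of all members. It was found with ARF25 at 42.2%, against 56.0%, and with ARF10 at 26.9%, against 54.3%. ARF39 was found with ARF14 at 22 of its 49 members (44.9%, against 6.29% of all members) and with ARF10 at 2 (4.08%, against 54.3%). The longer lists can join more often for their length alone, and no test of these pairs was made.

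On the clade A side, the longest lists were nearly always present. ARF34 had a peak at 98.3% of members (47.9% of all merged sites), ARF4 at 97.3% (26.6%), ARF16 at 95.9% (22.4%) and ARF27 at 91.6% (14%). ARF29 was present at 60.3% (7.41% of all sites) and ARF18, with 1106 events the shortest list, at 14.5% (1.5%). Both were less frequent at clade A-only sites, with 47.4% for ARF29 and 12.5% for ARF18, and more frequent at both-clade sites, with 74.6% and 27.3%. The commonest gap was the pair of ARF18 and ARF29, both absent at 564 members (36.9%), followed by ARF18 alone at 503 (32.9%). The clade A partners also differed between the joining ARFs. ARF29 was present at 87.8% of the ARF39 members and 75% of the ARF14 members, and at 55.4% to 65.3% of the members of the other 4. ARF34 was present at 77.6% of the ARF39 members and 89.6% of the ARF14 members, and at 97.9% or more of the others.

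Clade B events at members were weaker within their own lists than those at both-clade sites. The median percentile of ARF7 events was 36.0 at members and 80.3 at both-clade sites. For ARF10 these were 41.0 and 79.4, for ARF14 26.4 and 70.9, and for ARF25 36.5 and 83.7. For ARF36 they were 31.1 and 83.1, and for ARF39 42.7 and 66.4. The value at members was thus lower for 6 of 6 ARFs, with a mean difference of -41.7 ± 9.8 percentile points (SD over ARFs). This was -17.6 ± 7.2 with events of the upper q values and -15.6 ± 14.1 with the 4210 strongest events of each list. At the sites with 3 clade A and 1 to 3 clade B ARFs the ranks were also low: ARF10 had 37.2 there, and the other 5 had 35.0 (ARF14) to 53.4 (ARF39), each above its value at members. Strength bears on which events enter a list, and the rule used those lists, so this difference was not tested. In the authors' units the median strength of the clade B events at members ran from 27.1 (ARF14) to 35.4 (ARF39), and the lowest value was 18.

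The fewer clade B ARFs a member had, the lower those events ranked. The mean of the 6 median percentiles was 25.1 ± 6.1 at members with 1 clade B ARF, 35.7 ± 9.1 with 2 and 42.8 ± 9.0 with 3 (SD, n = 6 ARFs). ARF25 had 26.7, 33.9 and 50.1, and ARF10 had 33.0, 44.4 and 51.1. A small part of the events was strong. Those from the 90th percentile of the list upward made up 18.4% of the ARF39 events at members (9 of 49) and 9.38% of the ARF14 events (9 of 96). Over all sites of the ARF the shares were 9.80% and 9.87%, so that of ARF14 was near its share over all sites. Such events made up 4.70% (39) for ARF10, 2.99% (10) for ARF7, 2.46% (21) for ARF25 and 0.67% (4) for ARF36. Over all sites of these ARFs they made up 9.96% to 10.1%.

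Clade A events at members ranked between the other kinds of site. ARF4 had a median percentile of 78.6 at members, 65.0 at clade A-only sites and 85.1 at both-clade sites. The values were 71.9, 64.4 and 77.5 for ARF16, 66.1, 52.7 and 79.8 for ARF27, and 58.4, 49.6 and 74.3 for ARF29. ARF34 had 82.8, 79.4 and 85.7. ARF18 was the exception, with 41.3 at members and 43.1 at clade A-only sites, against 61.1 at both-clade sites. Members minus clade A-only sites averaged 7.5 ± 6.0 percentile points (SD over 6 ARFs), and 3.4 ± 3.0 with the 4210 strongest events of each list. Within a site, the mean clade B percentile was above the mean clade A percentile at 194 of the 1527 members (12.7%, Wilson 95% interval 11.1% to 14.5%), and at 785 of the 1652 both-clade sites (47.5%, 45.1% to 49.9%).

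**Figure D3:**
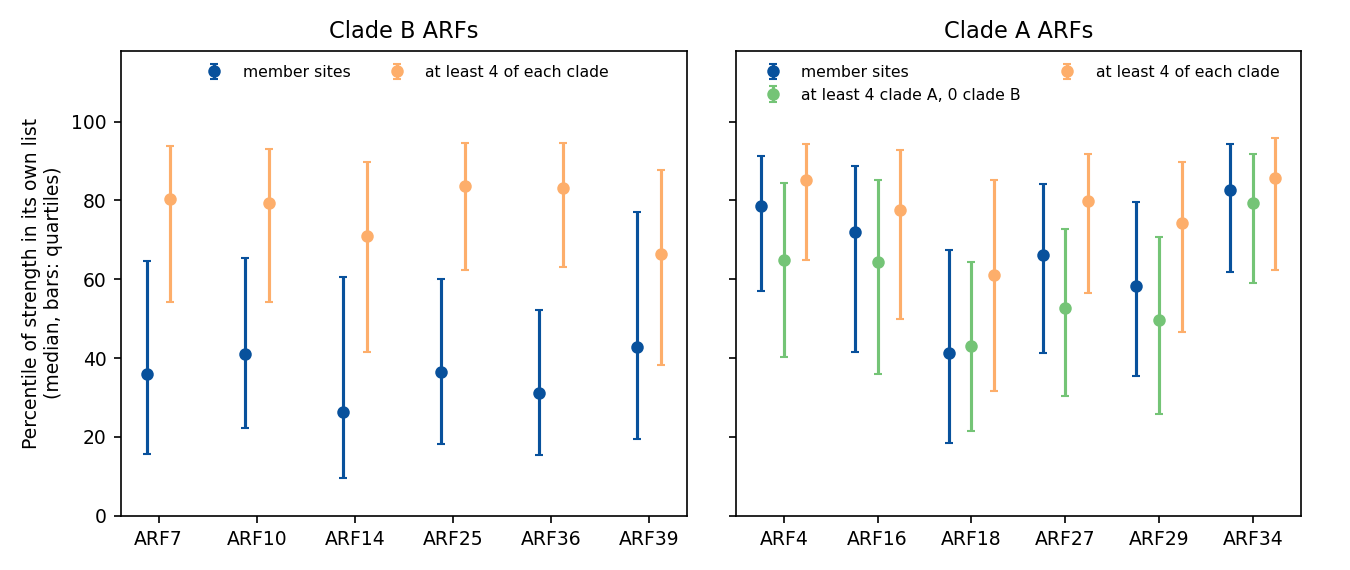
Percentile of strength of an event within its own list (vertical axis; points are medians over sites, bars the quartiles) for the clade B ARFs (left) and the clade A ARFs (right) at the kinds of site named in the legend. All 6 clade B medians at members lie between 26.4 and 42.7, below their values of 66.4 to 83.7 at both-clade sites.

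Of the 6 clade B ARFs, 5 lay farther from the clade A events of a member than the clade A events lay from each other, and ARF39 lay closer. Distance was the mean distance of an ARF's strongest event to the strongest events of the clade A ARFs of the site, its own left out. Its median over members was 27.1 bp for ARF7, 26.4 bp for ARF10, 21.6 bp for ARF25, 20.6 bp for ARF36, 19.6 bp for ARF14 and 8.75 bp for ARF39. In clade A it was 13.4 bp for ARF18, 15.3 bp for ARF16 and ARF27, 15.9 bp for ARF4 and 16.0 bp for ARF29 and ARF34. The clade means were 20.7 ± 6.6 bp in clade B and 15.3 ± 1.0 bp in clade A (SD, n = 6 each), a difference of 5.3 bp. It did not pass an exact permutation of the ARFs between clades (two-sided, 924 splits, p = 0.095; 0.125 after Benjamini-Hochberg adjustment over 2 tests). Clade A values share their distances with each other, and clade B values do not. The permutation kept clade A as the point of reference, so its p values cannot decide whether the clades differ. Without ARF39, which has 49 members, the difference was 6.2 bp and the adjusted exact permutation p was 0.017. Among all omissions and other settings, only this omission passed after adjustment. It takes out the clade B ARF that ran against the difference, so no conclusion is drawn from it. With stronger events the difference was smaller, at 2.0 bp with the 4210 strongest events of each list, 2.2 bp with events of the upper q values and 2.8 bp with those from the 50th percentile upward. The both-clade sites had nearly the same gap, with 16.4 ± 1.5 bp in clade B and 11.5 ± 1.7 bp in clade A, a difference of 4.9 bp that was not tested. The measure was chosen with a closer placement of same-clade events already known from these lists, so the gap is no independent result.

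For 5 of the 6 clade B ARFs the median distance to the clade A events was larger at members than at both-clade sites. ARF10 had a median of 26.4 bp at members and 17.2 bp there, ARF7 27.1 bp and 18 bp, ARF25 21.6 bp and 16.0 bp, ARF36 20.6 bp and 16.8 bp, and ARF14 19.6 bp and 16.8 bp. ARF39 again ran the other way, with 8.75 bp at members and 13.6 bp there. The mean difference of 4.3 ± 5.2 bp (SD over 6 ARFs), larger than 0 for 5 of 6, did not pass a two-sided exact sign-flip permutation test (p = 0.125, adjusted 0.125; the smallest value possible is 0.031). It was 0.38 bp with events of the upper q values, 1.5 bp with the 4210 strongest events of each list and 1.9 bp with merging within 50 bp. The clade A ARFs were likewise farther apart at members, by 3.8 ± 0.79 bp on average and for 6 of 6, which was not tested. Merged sites of either kind were of similar width, with medians of 56 bp at members and 54 bp at both-clade sites.

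**Figure D4:**
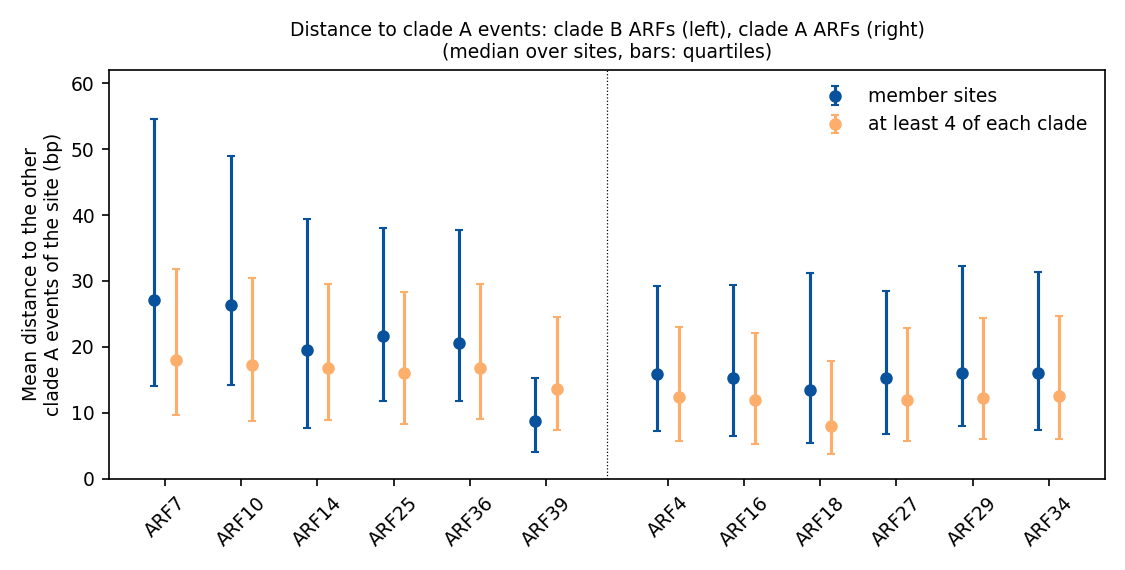
Mean distance of an ARF's strongest event to the strongest events of the other clade A ARFs of a site (vertical axis, bp; points are medians over sites, bars the quartiles), at members (blue) and at both-clade sites (orange), for clade B (left of the dotted line) and clade A (right). ARF39 is the one clade B ARF that lies closer at members, with 8.75 bp against 13.6 bp.

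Lone clade B peaks differed in how they were placed. The distance from the median clade A position had a median of 28.8 bp for ARF10 at the 254 members where it was alone, 13.0 bp for ARF25 (208 members), 16.3 bp for ARF36 (114) and 30 bp for ARF7 (74). Lone ARF10 events lay within 10 bp of that position at 22.0% of sites and between 40 and 60 bp from it at 23.2% (59 sites). The second band is wider than the first, and the median can fall between split clade A events. At a lone ARF10 site on chromosome 17, clade A events were at 29509493 to 29509494 and at 29509555 to 29509557. ARF10 lay 58.5 bp from their median. The band is therefore not read as a spacing of ARF10. For lone ARF25 events these shares were 46.2% and 8.17%, and for lone ARF36 events 36.8% and 11.4%. Of the lone ARF25 events, 66 (31.7%) lay 5 to 10 bp from the clade A position and 25 (12.0%) closer than 5 bp. This was not particular to lone ARF25 events. The same shares were 24.8% and 11.9% at members with 2 clade B ARFs and 23.4% and 14.1% with 3. At both-clade sites they were 26.1% and 20.2%. Where ARF10 was joined by another clade B ARF, 9.09% (2 clade B ARFs) and 15.2% (3) of its events fell in the band from 40 to 60 bp.

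Distances to the nearest clade A event, of whatever strength, were shorter. This event lay a median of 7 bp from the ARF10 event, 9 bp from the ARF7 event, 5 bp from the ARF14, ARF25 and ARF36 events and 2 bp from the ARF39 event. It was within 10 bp at 56.1% of the ARF10 members, 52.1% of the ARF7 members, 72.2% of the ARF25 members and 85.7% of the ARF39 members. Lone ARF10 events were within 10 bp of a clade A event at 43.7% of sites, and lone ARF25 events at 75.5%. Over all members of each ARF, the stronger events of a list lay nearer to the clade A events, to differing degrees. For ARF39 the mean distance had a median of 3.6 bp for the 21 events at or above the 50th percentile and 13 bp for the rest, and for ARF14 6 bp (29 events) and 22.6 bp. The same values were 24.5 and 29.6 bp for ARF7, 18 and 22 bp for ARF36, 19.5 and 22 bp for ARF25, and 25.5 and 26.7 bp for ARF10. For ARF10 this held only where it was alone (34.2 and 39.6 bp). It had 24.5 and 23.0 bp at members with 2 clade B ARFs and 22.25 and 22 bp with 3.

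**Figure D5:**
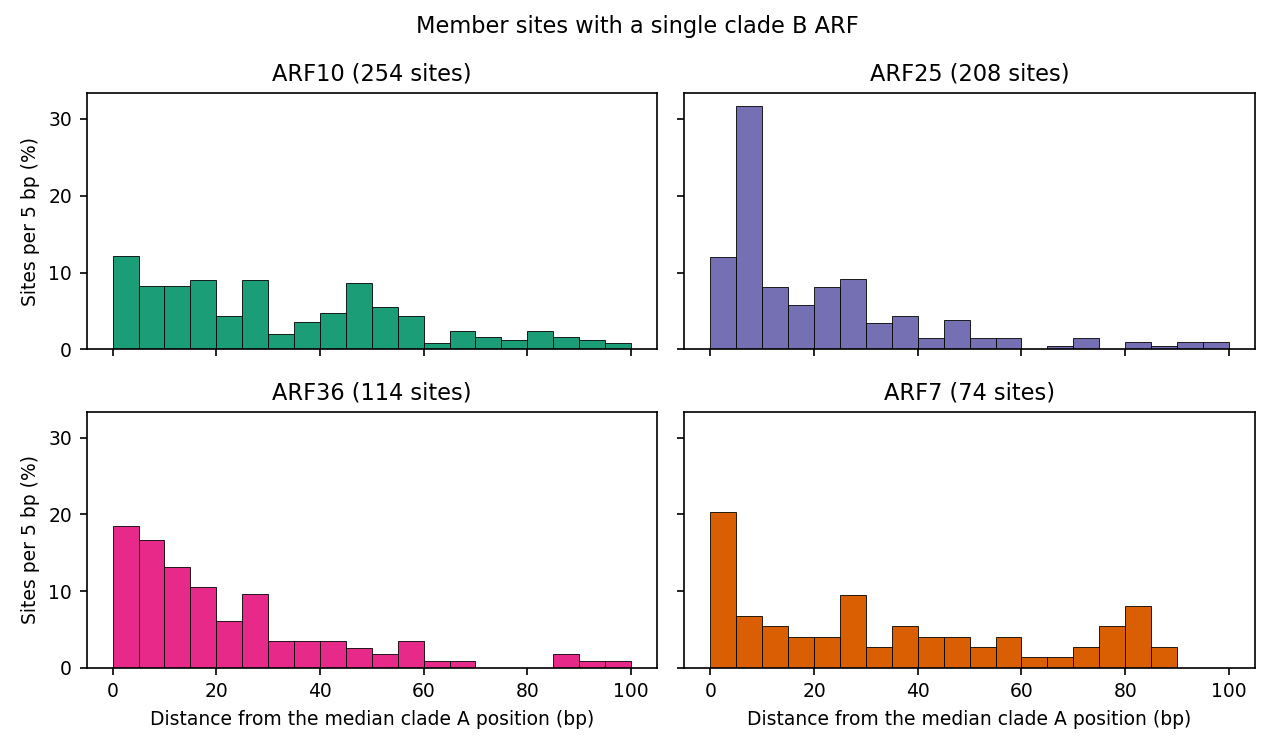
Share of member sites with a single clade B ARF (vertical axis, percent per bin of 5 bp) by the distance of its strongest event from the median position of the clade A events (horizontal axis, bp), for the 4 most frequent lone ARFs. Events beyond 100 bp are not drawn (21 for ARF10, 8 for ARF25, 4 for ARF7 and 2 for ARF36); ARF25 has 31.7% of its sites in the bin from 5 to 10 bp, and ARF10 has 23.2% between 40 and 60 bp.

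Members were broader than clade A-only sites, and part of them had repeated events, mostly of clade A. The span of event positions had a median of 56 bp (quartiles 30 and 94 bp), against 32 bp at clade A-only sites and 54 bp at both-clade sites. Members had a median of 7 events and clade A-only sites 4, so their spans are not like for like. At 365 members (23.9%) at least 1 ARF had more than 1 event, against 17.1% of clade A-only sites and 33.7% of both-clade sites. The repeats were mostly those of ARF34 (15.0% of its members) and ARF16 (13.7%), and of the clade B ARFs each had them at 0.33% to 4.08% of its members. Absent clade B ARFs were seldom close by: 7.73% of members had an event of a clade B ARF within 500 bp that was not part of the site, against 9.89% of clade A-only sites. Clade A-only sites lack all 6 clade B ARFs and members lack fewer, so these shares are not like for like. Taken singly, the share among members without the ARF was lower than at clade A-only sites for ARF10 only. It was 4.30% of 698 for ARF10, against 5.09%, and 5.36% of 672 for ARF25, against 4.77%. The others had 4.78% against 4.10% (ARF7), 4.75% against 3.54% (ARF36), 3.07% against 2.07% (ARF14) and 0.74% against 0.67% (ARF39).

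Every chromosome held members, from 53 on chromosome 12 to 100 on chromosome 19. Relative to all sites of 4 or more clade A ARFs, members ran from 21.5% on chromosome 12 to 30.5% on chromosome 17, with overlapping Wilson 95% intervals (16.9% to 27.1% and 25.5% to 36.1%). The middle of a chromosome, taken as 25% to 75% of the stretch with events, held 40.6% of members (38.2% to 43.1%), against 46.4% of clade A-only sites and 34.3% of both-clade sites. It held 47.5% of all merged sites. Members were near all sites of 4 or more clade A ARFs (41.6%) and near those with 3 clade A and 1 to 3 clade B ARFs (40.8%). Within the members the share was 45.2% with 1 clade B ARF, 38.7% with 2 and 35.0% with 3. Sites of the same libraries are no replicates, so these shares were not tested. Without ARF10 the share of members in the middle was 37.0%.

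Positions of single sites are on the chromosomes of the deposited lists, counted from 1, without a stated build, so the genes and sequences there were not analysed here. The 3 sites with the strongest lone event of each clade B ARF are given first. ARF14 had the strongest of all: at chromosome 15, 49411244 to 49411249, its strength was 478.9 (percentile 99.6), and those of clade A were 1481.0 (ARF27), 1453.0 (ARF4), 1426.0 (ARF29), 796.4 (ARF34), 626.0 (ARF16) and 302.8 (ARF18). All 7 events lay within 6 bp, and no other event of any list was within 500 bp. Its next lone events, at chromosome 5, 40673739 to 40673762, and chromosome 1, 3450978 to 3451059, had strengths of 37.0 and 34.0 and percentiles of 47.2 and 41.6.

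For ARF10, the strongest lone event was at chromosome 1, 22215197 to 22215459. Its strength there was 86.9 (percentile 97.2), beside 176.6 for ARF34, 105.4 for ARF16, 90.3 for ARF4, 48.1 for ARF27 and 41.6 for ARF29. It lay at 22215407, 139 bp from the median clade A position, but the clade A events were themselves split. Those of ARF27, ARF29 and ARF34 were at 22215262 to 22215268, and those of ARF4 and ARF16 at 22215459. At chromosome 18, 21003231 to 21003250, it had a strength of 76.0 (percentile 95.5), beside 108.8 for ARF34, 77.8 for ARF4, 45.3 for ARF16 and 25.2 for ARF27. At chromosome 17, 29509493 to 29509583, it had 74.1 (percentile 95.1), beside 125.7 for ARF34, 84.9 for ARF4, 78.0 for ARF16 and 32.8 for ARF27. Each of these sites had another merged site close by. On chromosome 1 it held 6 clade A and 2 clade B ARFs, 129 bp away, so being lone there rests on the merging distance. On chromosome 18 it held 6 clade A ARFs, 114 bp away, and on chromosome 17 it held 3, 170 bp away, both without clade B ARFs.

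For ARF7, the strongest lone event was the strongest of its site within the lists. At chromosome 7, 6132091 to 6132123, ARF7 had a strength of 174.0 (percentile 98.2), while ARF34 had 55.0, ARF16 44.0, ARF27 35.0 and ARF4 33.0, all 5 clade A events lying at percentiles of 43.5 to 72.6. It lay 28 bp from the median clade A position. The next lone ARF7 events were at chromosome 5, 2360011 to 2360079, and chromosome 18, 737288 to 737331, with ARF7 percentiles of 92.1 and 85.5.

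The top lone event of each of ARF25, ARF36 and ARF39 ranked below that of each of ARF14, ARF10 and ARF7. The next lone events of ARF14, at percentiles of 47.2 and 41.6, ranked below all those given here for ARF25 and ARF36. ARF25 reached percentiles of 85.4 at chromosome 6, 17692387 to 17692488, of 77.8 at chromosome 4, 12221688 to 12221715, and of 76.1 at chromosome 17, 35136605 to 35136813. A site with 5 clade A and 4 clade B ARFs lay 168 bp from the last of these. ARF36 reached 84.9 at chromosome 15, 49750763 to 49750805, 81.5 at chromosome 4, 44639855 to 44639885, and 74.97 at chromosome 1, 26169136 to 26169246. ARF39 had only 6 lone sites, and its 3 strongest lay at chromosome 19, 30625067 to 30625095 (percentile 47.1), chromosome 10, 34015013 to 34015051 (36.3), and chromosome 2, 39100643 to 39100657 (23.2).

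The leading members with all 6 clade A ARFs were among the strongest events of those lists. With 1 clade B ARF, the first was the ARF14 site on chromosome 15 given above (mean percentile 99.8 ± 0.32, SD over 7 ARFs). The second was at chromosome 20, 12605113 to 12605136, where the strength was 40.8 for ARF25, 407.1 for ARF16, 250.4 for ARF34, 145.0 for ARF4, 139.6 for ARF27, 96.0 for ARF29 and 78.0 for ARF18. ARF25 was at percentile 56.5 of its list there and the clade A ARFs were at 90.6 or above. A site with 2 clade B ARFs and no clade A ARF lay 148 bp away.

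With 2 clade B ARFs, the first was at chromosome 17, 35540005 to 35540065, with ARF14 at 439.9 and ARF39 at 324.0, beside clade A strengths of 250.5 (ARF16) to 1040.2 (ARF27). A site with all 12 ARFs began 191 bp from its end, at 35540256 to 35540265. The second was at chromosome 13, 38222486 to 38222515, where ARF10 had 105.3 (percentile 98.6) and ARF25 97.1 (91.5), beside 618.2 for ARF16, 547.5 for ARF34, 320.2 for ARF27, 303.8 for ARF29, 303.3 for ARF4 and 154.6 for ARF18. ARF10 lay 1 bp and ARF25 23 bp from the median clade A position.

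With 3 clade B ARFs, the first was at chromosome 4, 26981912 to 26981929, with 206.2 for ARF39, 201.7 for ARF25 and 144.6 for ARF14, beside clade A strengths of 81.6 (ARF18) to 382.8 (ARF4). A site with 6 clade A and 5 clade B ARFs began 148 bp from its end. The second was at chromosome 5, 22259838 to 22259854, where ARF10 had 95.4, ARF25 94.4 and ARF36 94.4. Clade A strengths there ran from 80 (ARF18) to 598.0 (ARF16), and the 3 clade B events lay 3 to 8 bp from the median clade A position.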

How the data were processed

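Peak lists of 12 maize ARFs on soybean leaf DNA were used, 1 per protein. Per the submitters' processing notes, reads were handled with Trimmomatic 0.36 and Bowtie2. The build, the filters and how the caller was set were not given in the sources used here. The names of the lists mention GEM, which calls binding events. The signal value of each event (column 7, called strength) was deposited by the authors without a stated scale, so it served to rank events within a list. The authors' −log10 values of p and q reach at most 999, and the lowest for q was 5; the q values served as a filter in 1 alternative.

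Event positions were written 1-based and merged by single linkage within 100 bp per chromosome. With several events of an ARF at a site, the strongest was used. Percentiles are mean ranks over the length of the list. Both tests used the ARF as the unit; being single libraries, ARFs measure the spread between proteins. Shares have Wilson intervals. Alternatives were distances of 50 and 200 bp, stricter or shorter lists, at least 5 clade A ARFs, other distance measures, a middle of 20% to 80%, and leaving out each ARF. Named sites were the 3 strongest lone events of each clade B ARF and, for 1, 2 and 3 clade B ARFs, the 2 sites with all 6 clade A ARFs and the highest mean percentile. The rule for members and all measures were chosen with earlier results of these data known, including that events of one clade lie closer together. Code was tested on simulated data. Calculations ran in Python 3.11.15 with scipy 1.17.1, pandas 2.3.3 and numpy 2.4.6, and plots were drawn with matplotlib 3.10.9.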

Additional observations from a re-analysis of the deposited data

Results flagged for a closer look

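In 2 of 14 groups of 6 ARFs (7 measures in each clade), an end value stood apart from the rest by a gap past Dixon's 95% critical value; chance gives about 1 in 20 groups. Both are those of ARF18, the shortest list, with 221 members. Both use its distance at members, so they are not separate observations. The members with ARF18 held a mean of 5.73 clade A ARFs, against 4.59 to 4.92 for the other 5, so the sites are not like for like. The median distance of ARF18 to the other clade A events at members was 13.4 bp, against 15.3 to 16.0 bp for the other 5 clade A ARFs. Its distance at members was 5.4 bp larger than at both-clade sites (13.4 against 8 bp), whereas for the other 5 the difference was 3.3 to 3.8 bp.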

How the results depend on the processing

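The number of members (1527) was 715 with only the events whose −log10 q reached the median of the list, 410 with the strongest 4210 events of each list and 719 with at least 5 clade A ARFs. Leaving out 1 ARF gave 743 to 1798, and moved it by over 1.5 times without ARF34 (743), ARF4 (750), ARF16 (777) or ARF27 (844), where 4 of the 5 clade A ARFs left were still required. The distance of clade B minus clade A (5.3 bp) kept its direction under 8 other settings and 12 omissions of 1 ARF, and ran from 4.1 to 6.8 bp with 1 ARF left out (exact permutation p = 0.0087 to 0.25); other settings gave 2.0 bp (4210 events, p = 0.32) to 8 bp (from the median clade A position, p = 0.028). Unadjusted, 5 alternatives had an exact permutation p under 0.05. Adjusted over 2 tests, only the omission of ARF39, the clade B ARF that ran against the difference, did (0.017), and the median position gave 0.056. As said above, these p values cannot decide whether the clades differ. The distance of clade B at members minus both-clade sites did not pass under any of 7 other settings or 12 omissions (2.7 to 5.2 bp with 1 ARF left out, 0.38 to 6.3 bp otherwise). The clade B percentile difference (-41.7) was -17.6 with the stricter q and -15.6 with 4210 events, and -45.9 to -34.1 with 1 ARF left out. The clade A one kept its direction, with 4.4 to 9.9 when 1 ARF was left out and 3.4 to 7.3 otherwise. A wider middle, of 20% to 80%, held 50.03% of members, and leaving out 1 ARF gave 37.0% to 41.9%. Shares of members moved as follows. With the stricter q they were 8.11% for ARF14, 52.7% for ARF25, 36.8% for ARF36 and 5.03% for ARF39. With 4210 events they were 57.3% for ARF10, 21.7% for ARF14, 33.7% for ARF25, 14.6% for ARF36, 36.3% for ARF39 and 10.2% for ARF7. With at least 5 clade A ARFs they were 63.6% for ARF25, 36.0% for ARF36 and 18.4% for ARF7. With 12286 events, chosen after seeing the data, they were 73.2% for ARF10, 13.97% for ARF14, 41.9% for ARF25, 19.9% for ARF36, 6.26% for ARF39 and 13.5% for ARF7. With 1 ARF left out they ran from 52.3% to 64.9% for ARF10, 5.51% to 16.2% for ARF14, 56.1% to 72.0% for ARF25, 35.9% to 56.5% for ARF36, 2.40% to 7.38% for ARF39 and 18.2% to 36.1% for ARF7. The cause of these moves was not tested, beyond the cap of 3 clade B ARFs. No paired analysis was possible because each ARF has 1 library and no replicate numbers link libraries; the sign-flip test pairs kinds of site within a library. Unknown depth limits every statement that an ARF was absent.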

Other observations

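Strong events of ARF14 and ARF39 at members were largely the same sites. Each had 9 events from the 90th percentile of its list upward, and 8 of these sites were common to both; 10 members had such an event of either, 9 of them held peaks of both ARFs and none held ARF10. Of the 10, 2 had a both-clade site within 500 bp, against 19 of all 1527 members. These sites were chosen after their values were seen, and no test was made.

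The clade B make-up at sites with 2 or 3 clade B ARFs also differed along the number of clade A ARFs. At sites with 2 clade B ARFs, ARF10 was present at 22.9% of 5483 sites without clade A ARFs and at 61.0%, 66.1% and 79.4% of members with 4, 5 and 6 clade A ARFs. ARF7 was present at 50.1% and then at 25.2%, 16.1% and 1.59%. At sites with 3 clade B ARFs, ARF14 was present at 36.3% of 3075 sites without clade A ARFs and at 13.5%, 17.4% and 16.7% of members with 4, 5 and 6.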
